A study of Mus musculus with 2 samples.

Results

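The smooth muscle contractile genes described here are Acta2, Tagln, Myh11, Myl9, Myl6, Tpm1, Tpm2, Mylk and Cnn1, which were chosen by gene symbol as 9 of the 32285 genes listed. Each symbol matched 1 row of the count matrices. The data are single-cell RNA-sequencing counts from the striatum of untreated adult mice, in 2 libraries labelled as replicates 1 and 2 of 1 group. The labels give the strain as C57/Bl6J and the age as 8 to 10 weeks, and the sample protocol names C57BL/6NTac. Cells were enriched for glia, freed of myelin and debris and passed through a fine filter after pronase digestion. Vessel cells may therefore not have been sampled in proportion to the tissue, and cells that stayed in vessel fragments may have been lost. Neither was measured. There was no treatment, so the comparisons are between the cell classes found in each library.

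Smooth muscle cells of the vessel wall shorten when myosin filaments pull on actin filaments. Calcium entering the cell binds calmodulin, calmodulin switches on myosin light chain kinase, the kinase phosphorylates the regulatory light chain of myosin, and the phosphorylated myosin engages actin. Tropomyosins lie along the actin filament, while calponin and transgelin bind actin and are widely used as markers of the differentiated contractile state. In brain vessels these cells ring arteries and arterioles, pericytes lie along capillaries, and both are called mural cells.

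The libraries held 6978 and 5437 cell barcodes with 44597660 and 37982720 unique molecular identifiers (UMIs, each a counted RNA molecule), of which 6783 and 5212 cells were analysed. The libraries shared 9 barcodes. Cell classes were built from other genes of the same cells, with the 9 genes and a list of 83 further contractile pathway genes left out of the clustering, and are called by the markers they carried. Smooth muscle-like cells numbered 60 and 54 (0.885% and 1.04% of cells) with median depths of 9692.5 and 9291.5 UMIs, and pericyte-like cells numbered 79 and 65 with median depths of 4286 and 4047 UMIs. In each class, 12 of 12 markers of that class were at least 2-fold higher in both libraries than in the rest of the cells (folds on CPM + 10). Against the other mural class alone this held for 12 of 12 pericyte markers and 10 of 12 smooth muscle markers, not for Tbx2 and Rasl12. The same markers named the classes, so these counts are partly built in. The tests used 10 classes, and an erythroid-like class of 85 and 11 cells was left out of them and of the rankings of levels. So was an unnamed group of 141 and 87 mural-cluster cells, with median depths of 1336 and 1179 UMIs. Markers of other cells were present at low levels: the 9 endothelial markers summed to 83.7 and 458 counts per 1e6 UMIs of the class (CPM) in smooth muscle-like cells against 22472 and 25259 in endothelial-like cells, with 2 and 0 of them at 0, and the 7 oligodendrocyte markers summed to 1766 and 330. In pericyte-like cells the 12 smooth muscle markers summed to 1254 and 1296 CPM against 7038 and 6080 in smooth muscle-like cells, with 1 of them at 0 in each library. The largest of them there were Gm13889 (593 and 578 CPM), Tbx2 (301 and 363) and Rasl12 (137 and 104). Tbx2 was lower in smooth muscle-like cells (174 and 167 CPM). Mustn1 went the other way, with 61.4 and 51.9 CPM in pericyte-like and 1430 and 1173 CPM in smooth muscle-like cells. How much of the sum in pericyte-like cells was smooth muscle RNA was not tested. The part of RNA from other cells in the values below was not tested, except where a direct measurement is given.

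The thin filament genes came first. Acta2 (chr19:34241090-34255590, minus strand, GRCm38), which encodes smooth muscle α-actin, had 23289 and 19370 CPM in smooth muscle-like cells of libraries 1 and 2. The same gene had 228 and 193 CPM in pericyte-like cells and between 4.63 and 54.3 CPM in the 8 remaining tested classes. Tagln (chr9:45929619-45936058, minus strand), which encodes transgelin, had 16122 and 14614 CPM in smooth muscle-like cells and 149 and 204 CPM in pericyte-like cells. The unnamed mural-cluster cells, outside the rankings, had 305 and 322 CPM of Tagln. For both genes the smooth muscle-like values of the libraries stood clear of every other value. Cnn1 (chr9:22099216-22109630, plus strand), which encodes calponin 1, had 465 and 621 CPM in smooth muscle-like cells, whereas pericyte-like cells held 2 UMIs in library 1 (5.84 CPM) and none in library 2, where a count of 0 allows up to 11.1 CPM. Tpm2 (chr4:43514711-43523765, minus strand), a β-tropomyosin gene, had 7186 and 6955 CPM in smooth muscle-like cells and 304 and 315 CPM in pericyte-like cells. Tpm1 (chr9:67022590-67049406, minus strand), an α-tropomyosin gene, had 4503 and 4684 CPM in smooth muscle-like cells. The next levels of Tpm1 were 543 and 590 CPM in oligodendrocyte precursor-like cells, followed by 371 and 500 in pericyte-like, 418 and 331 in neuron-like and 294 and 352 in endothelial-like cells. For Tpm1 the libraries' values of neuron-like cells overlapped with those of pericyte-like and of endothelial-like cells, and those of smooth muscle-like cells overlapped with none.

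Among the thick filament genes, Myh11 (chr16:14194535-14291372, minus strand), the smooth muscle myosin heavy chain, had 4768 and 5280 CPM in smooth muscle-like cells against 46.8 and 88.9 CPM in pericyte-like cells. The unnamed mural-cluster cells had 93.2 and 121 CPM of Myh11. Myl9 (chr2:156775420-156781658, plus strand) encodes the regulatory light chain that the kinase phosphorylates. It had 8973 and 7210 CPM in smooth muscle-like cells and 2530 and 2459 CPM in pericyte-like cells, with 159 and 184 CPM in endothelial-like cells. Myl9 was therefore the member with the narrowest gap between the mural classes. Myl6 (chr10:128490860-128494145, minus strand), the essential light chain shared by smooth muscle and non-muscle myosin, had 9099 and 8590 CPM in smooth muscle-like cells and was the only member with at least 249 CPM in all 10 tested classes in both libraries. Its next levels were 1989 and 1818 CPM in endothelial-like cells and 1365 and 1482 CPM in pericyte-like cells, and its lowest among the 10 classes were 303 and 249 CPM in astrocyte-like cells, with 173 and 204 CPM in the erythroid-like cells outside the tests. Mylk (chr16:34745210-35002420, plus strand), the myosin light chain kinase, had 2331 and 2696 CPM in smooth muscle-like cells, 354 and 374 CPM in pericyte-like cells and 61.3 and 76.6 CPM in endothelial-like cells. Every member is a protein-coding gene with no annotated gene overlapping it on its own strand in GENCODE vM21. Tagln overlaps Pcsk7 and Gm48529, and Mylk overlaps 1700119H24Rik, E130310I04Rik and Gm21691, on the opposite strand.

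**Figure D1:**
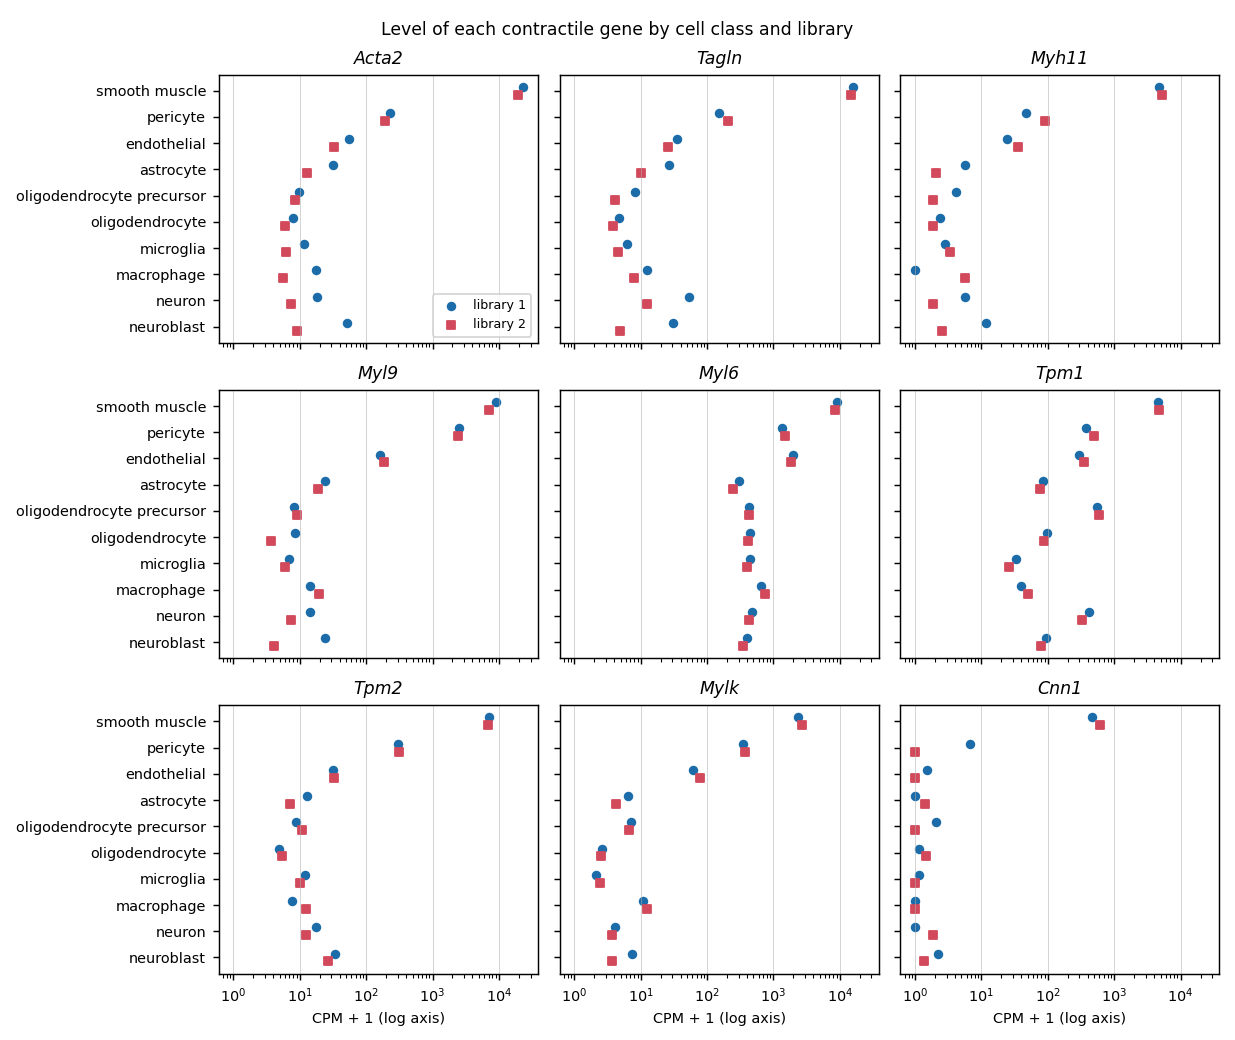
Levels of the 9 contractile genes in 10 cell classes (class names without the suffix -like). The x axis is CPM + 1 on a log axis, circles are library 1 and squares library 2; smooth muscle sits highest in all 9 panels, Myl9 has its second level in pericytes at 2530 and 2459 CPM, and Myl6 and Tpm1 are spread over many classes.

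All 9 genes were higher in smooth muscle-like than in pericyte-like cells by edgeR's quasi-likelihood test on the summed UMIs of each library and class (Benjamini-Hochberg adjusted p below 0.05), beside 8.04% of the 15171 genes tested. None was lower, beside 5.46% of all genes. The genes tested passed a low-count filter over all classes of the fit, and many had few counts in mural cells. Only 6644 genes, members aside, had at least 50 UMIs in the mural-cluster cells. The median log2 fold change of the members was 4.88, while the median over all genes tested was 0.00. The classes were cut from the same cells, so a gap between them is partly built in. Library entered the test as a block, which takes out shifts shared by all classes of a library. Each gene's spread was estimated over all classes of the fit together. The p-values therefore measure the class-by-library spread left over, not that of the mural classes alone. The labels do not tie the 2 libraries to separate animals, so spread between animals was not measured. Each SE was derived from the F statistic of the test and the fold change without the prior count, not from the spread of 2 values. Acta2 differed by 7.08 ± 0.38 (log2 ± SE, n = 2 libraries, adjusted p = 6.14e-11, edgeR), a 135-fold difference. Tagln differed by 6.84 ± 0.45 (adjusted p = 9.60e-10, edgeR) and Myh11 by 6.61 ± 0.45 (adjusted p = 1.32e-09, edgeR). At the clustering as reported, these genes thus formed a group with differences near 100-fold. The group did not hold at the finer mural clustering described below, with 11.79, 10.24 and 7.60 on the log2 scale. At the clustering as reported, Cnn1 belonged to the group by its fitted value of 7.45 ± 0.55 (adjusted p = 6.03e-09, edgeR), but with 2 UMIs in pericyte-like cells that value depends on the prior count. The plain ratio of CPM over both libraries was 165 for Cnn1, with a 95% interval of 45.5 to 1364 from counting error alone. Fitted folds carry the trimmed-mean (TMM) scaling of the test. CPM and plain ratios do not, so the scales differ.

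The tropomyosins and the kinase differed less. Tpm2 was 29.5-fold higher (4.88 ± 0.20, adjusted p = 3.28e-12, edgeR), Tpm1 13.7-fold (3.77 ± 0.19, adjusted p = 3.22e-11, edgeR) and Mylk 8.89-fold (3.15 ± 0.19, adjusted p = 4.11e-10, edgeR). The light chains closed the order, with Myl6 8.01-fold higher (SE 0.15 on the log2 scale, adjusted p = 3.22e-11, edgeR) and Myl9 4.14-fold higher (2.05 ± 0.31, adjusted p = 6.47e-05, edgeR). Against each of the 9 other classes of the fit, all 9 genes were again higher in smooth muscle-like cells, beside 2.5% of all genes tested. The smallest difference was that of Myl9 against pericyte-like cells. Outside the mural cells, Myl6 differed least against endothelial-like cells (2.29 ± 0.14 on the log2 scale) and Tpm1 against oligodendrocyte precursor-like cells (3.54 ± 0.18). Acta2 spanned 7.08 to 11.78 over the 9 classes.

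**Figure D2:**
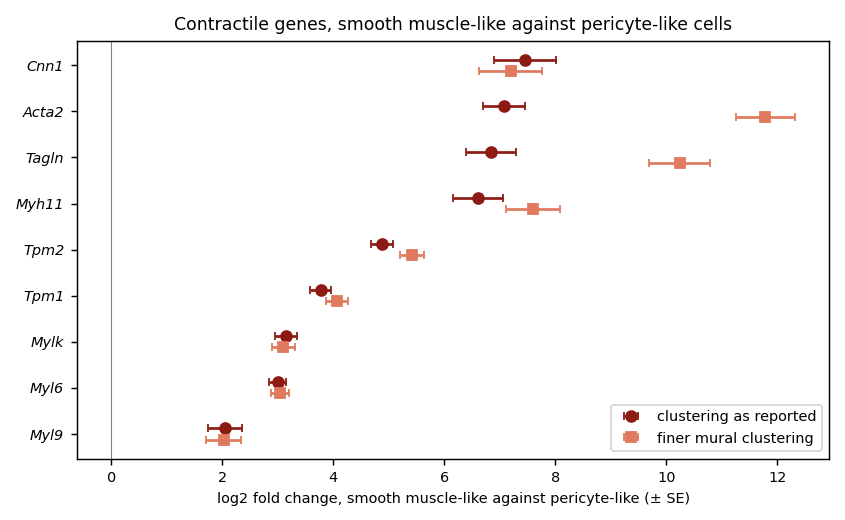
Log2 fold change (x axis, ± SE) of each member between smooth muscle-like and pericyte-like cells. Circles are the clustering as reported and squares a finer clustering of the mural cells, in which both classes hold other numbers of cells. Acta2 moves from 7.08 to 11.79 and Tagln from 6.84 to 10.24, while the points of Myl9, Myl6 and Mylk lie within their SE of each other.

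Although smooth muscle-like cells were about 1% of the cells, they held most of the RNA of 7 of the 9 genes. They carried 93.2% and 96.5% of all Acta2 UMIs in analysed cells of libraries 1 and 2, 92.6% and 95.9% of Tagln, 91.3% and 93.8% of Myh11 and 93.5% and 96.6% of Cnn1. For Tpm2 the shares were 86.1% and 89.2%, for Mylk 73.4% and 77.1%, and for Myl9 72.7% in both libraries, with a further 11.3% and 12.1% of Myl9 in pericyte-like cells. The other 2 genes lay mostly elsewhere. Smooth muscle-like cells held 33.0% and 34.0% of Tpm1 UMIs and 18.8% and 20.4% of Myl6 UMIs. Endothelial-like cells held 25.8% and 23.5% of Myl6 UMIs and oligodendrocyte-like cells 21.5% and 27.2%.

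**Figure D3:**
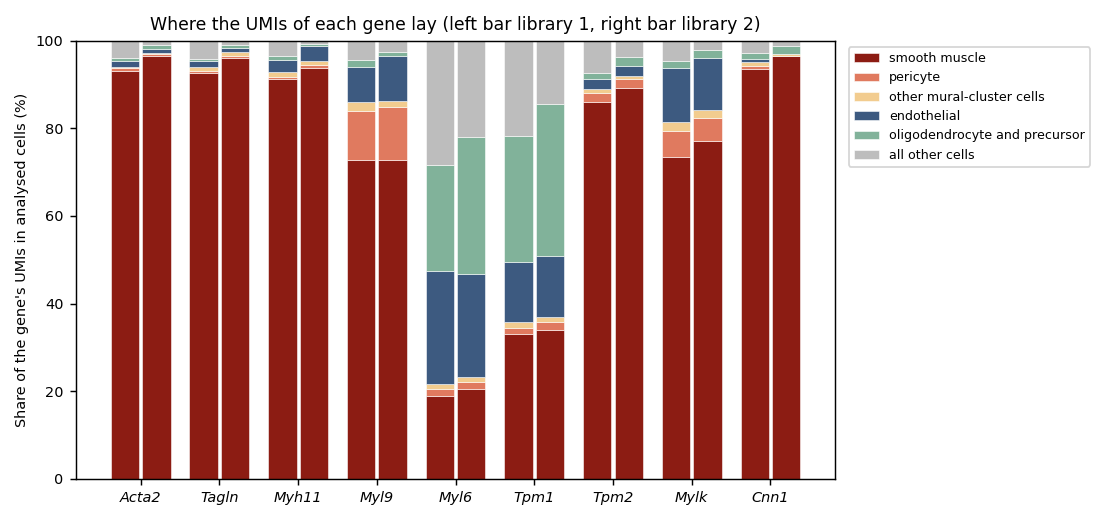
Share of each gene's UMIs by cell class (y axis, percent of the gene's UMIs in analysed cells), with library 1 as the left and library 2 as the right bar. Smooth muscle takes over 90% of Acta2, Tagln, Myh11 and Cnn1, and 18.8% and 20.4% of Myl6.

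Within the smooth muscle-like class, 8 of the 9 genes were found in nearly every cell. Acta2, Tagln, Myh11, Myl9, Myl6, Tpm1 and Tpm2 had a UMI in 60 of 60 and 54 of 54 cells, and Mylk in 60 and 53. Cnn1 had one in 35 of 60 and 31 of 54 cells (58.3% and 57.4%, exact binomial 95% intervals 44.9% to 70.9% and 43.2% to 70.8%). After thinning each cell to 1000 UMIs, Cnn1 was detected in 23.3% and 31.5% of the cells and Mylk in 85.0% and 88.9%. In microglia-like cells, a class that should lack smooth muscle genes, Cnn1 was detected in 1 of 1118 and 0 of 1026 cells at median depths of 6929 and 5502 UMIs. Cnn1 was thus split among smooth muscle-like cells, with 25 and 23 cells at 0 and a highest cell of 40 and 41 UMIs. Acta2 ranged from 29 to 580 UMIs per cell with a median of 238 in library 1, and from 5 to 482 with a median of 188.5 in library 2. Together the 9 genes made up a median of 7.62% and 7.09% of all UMIs of a smooth muscle-like cell, against 0.462% and 0.458% of a pericyte-like cell.

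Levels moved together across smooth muscle-like cells for some pairs and hardly for others. On the log2 scale of UMIs per 10000, Pearson's r between Acta2 and Tagln was 0.75 in library 1 and 0.90 in library 2 (60 and 54 cells), and between Acta2 and Tpm2 it was 0.85 and 0.88. Cnn1 and Myl9 had r of 0.18 and 0.11. These values are descriptions over cells that share a library and a depth scale.

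A finer clustering of the mural cells (resolution 0.8, chosen after the data were seen) divided the smooth muscle-like cells into subclusters, which are called here by leading genes. The Eln-led subcluster (elastin) held 30 and 28 of the cells and the Olfr558-led subcluster (an olfactory receptor gene) 30 and 26, with median depths of 11816.5 and 10219 UMIs against 8536.5 and 8838.5. Eln itself had 501 and 660 CPM in the former and 43.4 and 44.7 CPM in the latter, while Olfr558 had 120 and 58.8 CPM against 406 and 492. Cnn1 separated them by far the most among the members. It had 740 and 1100 CPM in the Eln-led subcluster and 67.0 and 24.4 CPM in the Olfr558-led one. Acta2 had 26909 and 24338 CPM against 18042 and 13186, Tagln 18574 and 17942 against 12568 and 10471, and Tpm2 8759 and 8881 against 4906 and 4557. Both libraries of the Eln-led subcluster therefore lay above both of the other for these genes. Tpm1 had 5263 and 5534 CPM against 3403 and 3626. Mylk (2495 and 2981 against 2094 and 2341) and Myh11 (5113 and 5756 against 4267 and 4687) also lay apart, by less. Myl9 overlapped, with 9382 and 7679 CPM against 8380 and 6625, and Myl6 had 9573 and 9779 CPM against 8412 and 7109. The subclusters come from the same cells and no test was made between them. The pericyte gene Vtn had 359 and 687 CPM in the Olfr558-led subcluster and 43.5 and 29.4 CPM in the Eln-led one.

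**Figure D4:**
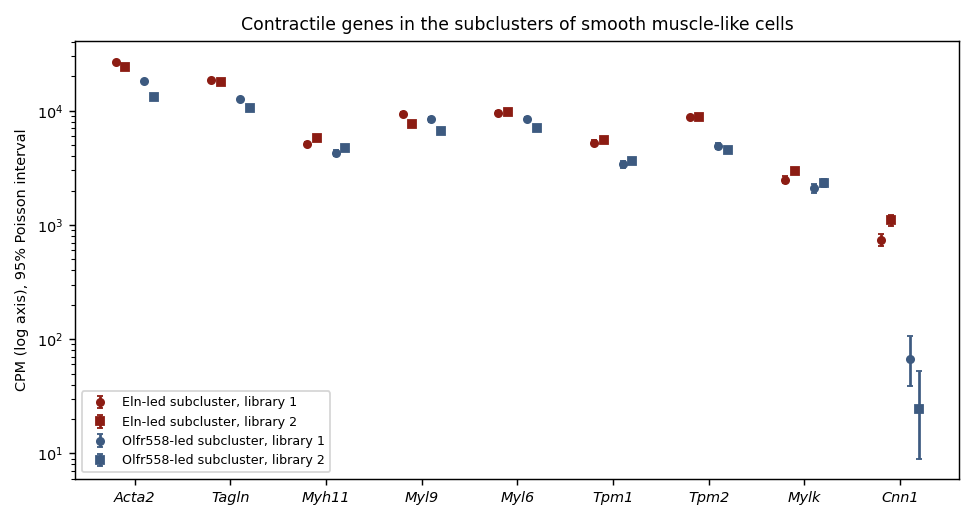
Level of each member (y axis, CPM on a log axis, with 95% Poisson intervals that cover counting error only) in the Eln-led (red) and Olfr558-led (blue) subclusters, circles for library 1 and squares for library 2. Cnn1 stands apart, at 740 and 1100 against 67.0 and 24.4 CPM.

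Pericyte-like cells carried a different subset of the same machinery. A UMI of Myl9 was found in 98.7% and 100% of them and of Myl6 in 98.7% and 98.5%. Tpm1 was found in 65.8% and 63.1%, Mylk in 55.7% and 72.3% and Tpm2 in 48.1% and 58.5% of pericyte-like cells. For comparison, Myl9 was found in 3.67% and 2.24%, Mylk in 0.626% and 0.682% and Tpm2 in 6.44% and 4.48% of the more deeply sequenced microglia-like cells. The other genes were more widespread. Myl6 was found in 79.7% and 76.9% and Tpm1 in 16.9% and 11.6% of microglia-like cells. Tpm1 was found in 79.7% and 81.9% of oligodendrocyte precursor-like cells, which were also sequenced more deeply. After thinning to 1000 UMIs, the shares in pericyte-like cells were 84.8% and 90.8% for Myl9, 25.3% and 36.9% for Mylk and 19.0% and 18.5% for Tpm2. Tpm2 had a median of 0 and 1 UMIs per pericyte-like cell, and 15 and 11 UMIs in the highest. By the shares above, Myl9, Mylk and Tpm2 were spread over many pericyte-like cells.

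Acta2 and Tagln were not. Acta2 had a UMI in 5 of 79 and 8 of 65 pericyte-like cells (6.33% and 12.3%, exact binomial 95% intervals 2.09% to 14.2% and 5.47% to 22.8%), against 6.08% and 2.73% of microglia-like cells. The 5 pericyte-like cells with the most Acta2 held 100% and 94.2% of its 78 and 52 UMIs, with 57 and 23 UMIs in the highest cell. Tagln was in 6 cells of each library, and 98.0% and 98.2% of its UMIs were in the top 5. Myh11 was in 10 and 11 cells (12.7% and 16.9%), with at most 3 and 5 UMIs in a cell. The class levels of Acta2 and Tagln in pericyte-like cells therefore describe a few cells.

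Pericyte-like cells were higher than each of the 7 classes outside the vessel wall for 7 of the 9 genes by edgeR's quasi-likelihood test, beside 3.72% of all genes tested. Cnn1 was not called against any of them. Tpm1 was not called against neuron-like cells (0.28 on the log2 scale, adjusted p = 0.236, edgeR) or against oligodendrocyte precursor-like cells (-0.24, adjusted p = 0.362, edgeR). Against endothelial-like cells, 5 of the 9 (Acta2, Tagln, Myl9, Tpm2 and Mylk) were higher in pericyte-like cells, beside 8.29% of all genes. Myl9 led with 3.55 ± 0.33 (adjusted p = 7.12e-08, edgeR), followed by Tpm2, 7.98-fold higher (SE 0.21 on the log2 scale, adjusted p = 1.93e-09, edgeR), Tagln with 2.29 ± 0.46 (adjusted p = 0.000577, edgeR), Mylk with 2.11 ± 0.20 (adjusted p = 7.62e-08, edgeR) and Acta2 with 2.00 ± 0.36 (adjusted p = 0.000248, edgeR). Myl6 was lower in pericyte-like than in endothelial-like cells (-0.71 ± 0.14, adjusted p = 0.000648, edgeR).

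The finer mural clustering changed part of this. It left 72 and 59 pericyte-like cells, with 2 Acta2 UMIs in each library (6.40 and 8.35 CPM, below the 9.60 and 12.5 CPM that 3 counts would give) and 8 and 1 Tagln UMIs. Myh11 then had 28.8 and 33.4 CPM in pericyte-like cells. The smooth muscle-like class grew from 60 and 54 to 68 and 61 cells. Its Acta2 UMIs went from 14464 and 10698 to 14541 and 10748, while those of pericyte-like cells fell from 78 and 52. Comparisons between the mural classes at this clustering thus changed on both sides. The members called higher in pericyte-like cells against all 7 classes fell from 7 to 4 (Myl9, Myl6, Tpm2 and Mylk), beside 3.68% of all genes at this clustering. Against endothelial-like cells, Myl9, Tpm2 and Mylk kept their calls, beside 7.86% of all genes called higher and 13.6% called lower. Acta2 turned from 2.00 higher (adjusted p = 0.000248, edgeR) to -2.80 (adjusted p = 0.00708, edgeR), on 2 UMIs per library in pericyte-like cells. The endothelial-like level of Acta2 in that fit included the deep cells described below, and no fit at this clustering left them out. The values of Myl9 (2405 and 2388 CPM), Myl6 (1244 and 1357) and Mylk (361 and 342) in pericyte-like cells were close to those of the first clustering, and Tpm2 had 211 and 188 CPM. With 4 Acta2 UMIs in all, the ratio of smooth muscle-like to pericyte-like cells at this clustering was 2816, with a 95% counting interval of 1100 to 10337.

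In endothelial-like cells the levels of several members depended on a small set of deep cells. With the first clustering at 0.32, the mural cluster was clustered again, and its unnamed parts with a high median depth were picked. These 28 and 37 cells had median depths of 17658 and 13047 UMIs, and 28 and 35 of them belonged to the endothelial-like class. They carried both the endothelial gene Cldn5 (3512 and 4345 CPM) and the pericyte gene Vtn (6472 and 7696 CPM). Without them, Acta2 in endothelial-like cells went from 54.3 and 32.3 to 19.9 and 6.88 CPM. The pericyte-like cells of the finer clustering, at 6.40 and 8.35 CPM, were then lower in library 1 and higher in library 2. Myl9 went from 159 and 184 to 36.3 and 38.9 CPM, Tpm2 from 30.5 and 32.0 to 11.6 and 7.69, and Mylk from 61.3 and 76.6 to 35.4 and 38.0 CPM. Myh11 went from 23.3 and 34.3 to 11.0 and 5.26 CPM. Myl6 and Tpm1 hardly moved: Myl6 had 2001 and 1823 CPM without the deep cells and Tpm1 276 and 325 CPM, and a UMI of them was found in 86.4% and 87.4% and in 52.7% and 58.5% of all endothelial-like cells. The difference between smooth muscle-like and endothelial-like cells was then 10.78 on the log2 scale for Acta2 instead of 9.07, and 7.82 for Myl9 instead of 5.60. Pericyte-like cells were then also higher than endothelial-like cells for Myh11 (2.62, adjusted p = 0.00149, edgeR), which had not been called with the deep cells in (0.90, adjusted p = 0.252, edgeR). The deep cells had been picked from a mural cluster and carried Vtn. Lower levels of mural genes in endothelial-like cells without them, and larger gaps to the mural classes, are therefore partly built in.

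In the classes outside the vessel wall, Acta2 and Tagln were also described by their proportion. Acta2 made up 59.1% and 57.0% of the UMIs of the pair in smooth muscle-like cells. The share was 54.3% and 56.0% in astrocyte-like cells, 64.9% and 64.1% in oligodendrocyte-like cells, and microglia-like cells had 66.1% and 58.3%. Neuron-like cells had 24.4% and 35.0% (exact binomial 95% intervals up to 34.6% and 59.2%), with 68 and 13 Tagln UMIs, of which 66.2% and 92.3% lay in 5 cells. The source of this RNA was not tested. In neuroblast-like cells of library 1, a single cell held 248 of the 335 Acta2 UMIs, 159 of the 201 Tagln UMIs and 58 of the 73 Myh11 UMIs, and the class level there (49.8 CPM of Acta2, against 8.12 in library 2) rests on it.

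The finer clustering also gave a fibroblast-like class of 40 and 22 cells. It was cut from the same mural cluster as the unnamed cells of the first clustering, so UMIs given for those groups can be the same ones. In the fibroblast-like class the members did not move together. Tagln had 301 and 272 CPM (66 and 40 UMIs), while Acta2 had 2 and 0 UMIs, Myh11 none and Cnn1 0 and 1. Acta2 was 2.94% and 0% of the pair, with upper limits of 10.2% and 8.81%. Myl9 had 296 and 285 CPM and Myl6 1213 and 1250 CPM in these cells. The Tagln UMIs lay in 10 of 40 and 4 of 22 cells. All 9 genes were higher in smooth muscle-like cells by edgeR's quasi-likelihood test, beside 8.72% of the 15038 genes tested at this clustering, with the smallest difference for Myl6 (3.16 on the log2 scale) and 6.12 for Tagln.

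Further genes of the contractile pathway were followed from the list of 83, all present in the files. Of these, 79 passed the low-count filter over all 10 classes and were compared between smooth muscle-like and pericyte-like cells. A gene could pass through a single class, and some of those called higher had no UMI in pericyte-like cells. Of the 79 genes, 44 were higher, 8 were lower and 27 were not called, with a median log2 fold change of 1.22 against 0.00 over all genes (1219 of 15171 genes higher and 828 lower). Scaling by library sizes alone instead of by trimmed means moved the median over all genes to -0.19 and the share of higher calls among all calls from 59.6% to 33.1%. The list then had 39 higher and 12 lower genes. None of the 52 genes called here changed sign under any alternative in which the gene was tested. After thinning to 1000 UMIs, 75 genes of the list were tested. Actin and actin-binding genes had 18 of 26 higher and 1 lower. Csrp1, a LIM protein of the actin cytoskeleton, had 2624 and 2225 CPM in smooth muscle-like and 32.1 and 29.6 CPM in pericyte-like cells (6.67 on the log2 scale). Lmod1, a leiomodin that nucleates actin filaments, had 868 and 728 CPM against 26.3 and 25.9 (5.28), and Nexn, the actin-binding protein nexilin, 361 and 324 against 14.6 and 0 (5.70).

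Several genes were at or near 0 in pericyte-like cells, and their differences are given as bounds or ratios of plain CPM. Synpo2, an actin-bundling protein, had 134 and 244 CPM in smooth muscle-like cells and no UMI in pericyte-like cells, and was at least 37.9-fold higher when 3 counts over both libraries are taken as the floor. On the same floor Actg2, the enteric smooth muscle actin, was at least 23.8-fold higher (134 and 97.8 CPM), and Ldb3, a Z-disc protein, at least 12.7-fold (53.1 and 72.4 CPM). Pdlim3, another PDZ and LIM protein, had 427 and 369 CPM and a ratio of 81.6 (95% counting interval 27.7 to 397). Pln, the phospholamban gene that restrains the calcium pump, had 1691 and 1168 CPM against 2 UMIs in all, a ratio of 442 (122 to 3654). Jph2, which ties the sarcoplasmic reticulum to the cell membrane, had 103 and 116 CPM against 1 UMI (ratio 66.8, interval 11.8 to 2658). Myocd, the serum response factor coactivator myocardin, had 105 and 120 CPM against 1 UMI (ratio 68.4, interval 12.1 to 2720). Actg2 and Myocd were not called by DESeq2. After thinning, Ldb3 was not called and Myocd had too few counts to be tested.

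The other groups of the list were more mixed. Intermediate filament and transcription factor genes had 6 of 11 higher and none lower, led after Myocd by Synm (synemin, 510 and 541 CPM against 20.5 and 11.1) and Vim (vimentin, 4858 and 3625 against 134 and 163). Myosin, kinase and phosphatase genes had 8 of 15 higher and 2 lower. Both of the lower ones belong to non-muscle myosin: Myh9, a non-muscle heavy chain, had 96.6 and 170 CPM in smooth muscle-like and 549 and 641 CPM in pericyte-like cells (-1.80 on the log2 scale, adjusted p = 2.62e-06, edgeR), and Myl12a, a regulatory light chain, 235 and 261 against 602 and 619 (-0.93, adjusted p = 0.000178, edgeR). The other non-muscle myosin genes of the list, Myh10 (1.22), Myl12b (-0.25) and Myh14 (1 UMI in each class), were not called. Calcium handling and channel genes had 6 of 14 higher and 2 lower. Casq2, a calcium-binding protein of the reticulum, had 46.7 and 85.1 CPM against 245 and 248 (-1.55). The call of Casq2 was lost at the finer mural clustering (-0.72, adjusted p = 0.243, edgeR) and after thinning (-0.73, adjusted p = 0.663, edgeR). Receptor and cyclic GMP genes had 6 of 13 higher and 3 lower. The thromboxane receptor gene Tbxa2r had 56.4 and 92.3 CPM against 400 and 404 (-2.07), Gucy1b1, a soluble guanylate cyclase subunit, 322 and 340 against 865 and 1004 (-1.12), and Rgs4, a regulator of G protein signalling, 834 and 802 against 1803 and 1696 (-0.73). Tpm4, a non-muscle tropomyosin, was the lower actin-binding gene, with 90.2 and 132 CPM against 205 and 267 (-0.71). Rgs4 and Tpm4 had adjusted p = 0.0476 and adjusted p = 0.0346 in edgeR's test, and DESeq2 did not call these or Tbxa2r. The calls of Rgs4 and Tpm4 were also lost without the library block and at a first clustering of 0.32. Rgs4 lost its call at a minimum of 500 genes and at the finer mural clustering as well, and Tpm4 after thinning. Myl12a was not called after thinning (adjusted p = 0.143, edgeR).

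**Figure D5:**
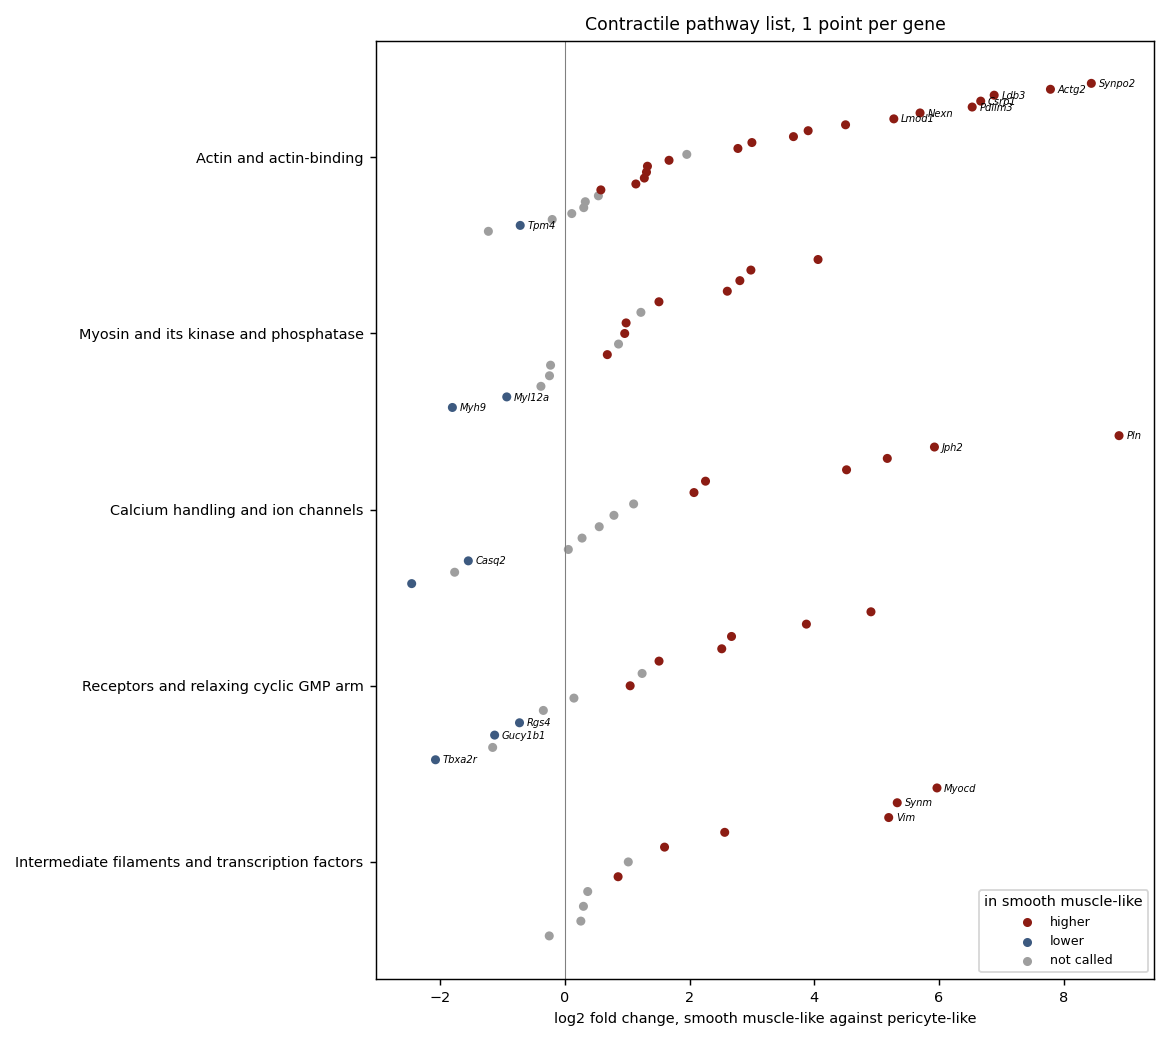
Log2 fold change (x axis, smooth muscle-like against pericyte-like cells) of the 79 pathway genes tested, in 5 groups on the y axis, red for higher, blue for lower and grey for not called. Points with 0 UMIs in pericyte-like cells (such as Synpo2, Actg2 and Ldb3) depend on the prior count. Of the points, 44 are red and 8 blue.

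The CArG box, the site of serum response factor, was searched in the 250 bases before each RefSeq transcription start (GRCm38.p6), as CC, 6 bases that are A or T, and GG, a form that reads the same on both strands. Windows were found for 7 of the 9 members (8 windows), and Tagln and Myh11 were without one. A full box lay in 2 of the 8 windows, those of Myl9 (161 bases before the start) and Myl6 (50 bases before its second start), beside 1.47% of 32851 windows. Allowing 1 core base to be C or G, 3 of 8 windows held a box, including that of Acta2 (84 and 34 bases before the start), beside 8.59% of all windows. Of 43 windows of pathway genes called higher, 9.30% held a full box and 25.6% the looser form, and of 8 windows of genes called lower, 0 and 1 did. These stretches are shown because they carry every box found for the members, with the boxes in capitals. The Acta2 sites are cut to 30 bases each (chr19:34255438-34255467 and chr19:34255388-34255417, minus strand) and lie in an untranslated first exon of the GENCODE vM21 annotation. The Myl9 stretch (chr2:156775283-156775412, plus strand) lies upstream of the annotated gene, and the Myl6 stretch (chr10:128493046-128493145, minus strand) lies inside the gene, in an intron of its coding transcripts that 1 annotated transcript retains.
Acta2, first site: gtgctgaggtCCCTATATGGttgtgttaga
Acta2, second site: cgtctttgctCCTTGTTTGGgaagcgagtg
Myl9: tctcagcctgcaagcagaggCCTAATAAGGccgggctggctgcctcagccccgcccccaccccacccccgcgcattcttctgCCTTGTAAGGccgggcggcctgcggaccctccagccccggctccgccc
Myl6: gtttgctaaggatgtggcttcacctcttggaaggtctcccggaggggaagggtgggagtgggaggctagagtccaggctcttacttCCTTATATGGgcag

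The boxes are letters in these windows and no binding was measured. Myl9 and Myl6, whose windows held the full boxes, were the members with the smallest differences between the mural classes. Tagln and Myh11, with differences near 100-fold at the clustering as reported, had no window to search. A relation between boxes and differences was not tested.

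The genes most like the members were sought over the 20 sums of library and class. Pearson's r was taken between log2(CPM + 10) and the mean of Acta2, Tagln, Myh11, Tpm2 and Cnn1. The 6644 genes considered had at least 50 UMIs in the mural-cluster cells, so a gene could enter through smooth muscle-like cells alone. Genes largely confined to that class have a high r by this measure, so the values are partly built in. The genes named were Lmod1 (r = 0.995), Mustn1 (0.991), Olfr558 (0.984), Nkx6-1 (0.981), Mamdc2 (0.980), Ccdc3 (0.979), Map3k7cl (0.979) and Aoc3 (0.979). Mustn1, Olfr558, Map3k7cl and Aoc3 were among the markers that named the smooth muscle-like class. The 5 members that form the mean had r from 0.953 to 0.996, which is partly built in. Of the members outside it, Mylk had 0.940, Myl6 0.906, Myl9 0.900 and Tpm1 0.813. All of these points share libraries and classes.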

How the data were processed

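The deposited matrices hold raw UMI counts per gene and cell barcode, which the authors made with Cell Ranger against mm10 (version 4.0 per the labels). Cells with at least 300 genes were kept, Scrublet removed 115 and 152 doublets, and Seurat 5.3.0 integrated the libraries by canonical correlation, with 30 components and resolution 0.08. The mural cluster was clustered again at 0.1. Another cluster of it (141 and 87 cells, mixed markers) was left unnamed and out of the tests. Counts summed by library and class entered edgeR 4.0.16 (quasi-likelihood test, TMM, low-count filter, prior count 2, library as block, Benjamini-Hochberg adjustment at 0.05). DESeq2 1.42.0 was an alternative. The named genes were all members, the 12 largest rises and 8 largest falls of the pathway list, and the 8 genes most like the members. One of the falls is not reported here. Members and lists were chosen with earlier results of these data known. The finer mural clustering, its fibroblast-like class and the fit without the deep cells were chosen after the data were seen. The test was also run on simulated counts with the same fixed spread for every gene, unlike the data, and no result here rests on that run. Intervals cover counting error only.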

Additional observations from a re-analysis of the deposited data

How the results depend on the processing

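All 9 members stayed higher in smooth muscle-like cells, against pericyte-like cells and against each other class, under every alternative run. With 1 library left out there was no test, and counts by sign were 9 and 9, with 7 to 8 for pericyte-like cells against the classes outside the vessel wall. That last count was 7 under every tested alternative but the finer mural clustering, where it was 4. Of the pathway list, 29 genes were higher after thinning to 1000 UMIs and 5 lower with DESeq2. The median share of smooth muscle-like cells with a UMI of a member (100%) became 99.1% with the members kept in the clustering, 97.0% at the finer mural clustering and 98.1% after thinning, and was 100% without either library. The median share in pericyte-like cells (53.3%, 48.1% to 58.5% without 1 library) became 37.5% at a minimum of 500 genes, 34.1% at a first clustering of 0.32 and 18.7% after thinning. The median share of a member's UMIs in smooth muscle-like cells (87.6%, 86.1% to 89.2%) became 83.0% with doublets kept and 80.2% after thinning. The cause of these moves was not tested. The log2 fold change of Cnn1 was 10.05 without replicate 1, where pericyte-like cells held no Cnn1 UMI and the value depends on the prior count, and 6.51 without replicate 2. Over all genes, 334 higher and 309 lower calls were made after thinning and 781 and 1579 with library sizes alone. The libraries' replicate block was part of the test, and without it the members' calls were 9 and 9, with 1096 higher and 735 lower calls over all genes. Shallow classes limit low values: 3 counts were worth 8.77 and 11.1 CPM in pericyte-like cells.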
